A study of Mus musculus with 20 samples.

Results

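The nucleosome remodelling and deacetylase complex, NuRD, is a corepressor that joins an ATP-dependent chromatin remodeller to histone deacetylases. In vertebrate cells its enzymes are held together by scaffold subunits of the Mta family, its Mbd subunit ties it to DNA, and its Rbbp subunits hold histones. Bcl11b, a zinc-finger protein that T cells need for their identity, is known to bind NuRD through a short motif at its N-terminus, and Foxp3, the factor that defines regulatory T cells (Treg), is also known to act with histone deacetylases. The values below describe where Bcl11b and Foxp3 were listed at the genes that encode the NuRD subunits. They do not measure the complex or its contact with either factor.

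The genes are Chd4, Hdac1, Hdac2, Mta1, Mta2, Mta3, Mbd2, Mbd3, Rbbp4 and Rbbp7. A region belongs to one of them where its centre lies nearest to that protein-coding gene in mm10, at distance 0 inside the gene and at most 100 kb away. This rule placed 15 of the 22081 distinct regions of the series at 8 of the 10 genes. None of the 15 was placed at more than 1 gene, and none stood in conflicting classes of a comparison.

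The series used chromatin immunoprecipitation and sequencing (ChIP-seq) on CD4+ T cells sorted from spleen and draining lymph nodes of C57BL/6 mice. Foxp3 was precipitated in 2 libraries from Bcl11b-KO Treg cells (Bcl11b f/f Foxp3-IRES-YFP-Cre, sorted CD4+YFP+) and in 2 libraries from WT Treg cells (Foxp3-IRES-YFP-Cre, CD4+YFP+). Bcl11b was precipitated in 2 libraries from Foxp3-deficient Treg cells named KIKO (Foxp3-GFPKO, CD4+GFP+), in 3 libraries from WT Treg cells, and in 3 libraries from WT cells labelled Tn, and 8 further libraries were input DNA. Cre is expressed from the Foxp3 locus, and the WT Treg and Tn samples carry it too; the Tn samples bear the same genotype and sort label as the WT Treg samples, and the labels do not expand Tn. Ages are not given, and the labels do not say that replicates came from separate animals.

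The data are 12 lists of regions, 3 for each of 4 comparisons, which class a region as first-set-specific, common to the pair of sets, or second-set-specific. They carry no score, read count or value per library, so the depth behind a call is unknown, cell markers could not be checked, and no test between conditions was possible. Counts at the NuRD genes are therefore given beside the same share over all regions. Intervals are Wilson 95% intervals, cover counting error only, and treat regions of 1 gene as independent, which they are not. Pooled over the comparisons that name them, 2198 regions were listed for KIKO Bcl11b, 8589 for Treg Bcl11b, 5222 for Tn Bcl11b, 12875 for Bcl11b-KO Foxp3 and 16228 for WT Foxp3. The part of these set sizes in the counts below was not tested.

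Stretches of 2 regions are shown because they carry the contrast in the results: the region at the start of Rbbp4, listed for Bcl11b and Foxp3, and the region at the start of Chd4, listed for Foxp3 and in no Bcl11b list. Each is the part of the region that lies before the RefSeq start site (GRCm38.p6, the assembly with mm10 coordinates) and outside every annotated gene, written 5′ to 3′ on the strand of the gene. Capitals mark CpG dinucleotides, the sites at which vertebrate DNA is methylated.
Rbbp4, minus strand, chr4:129335371-129335531: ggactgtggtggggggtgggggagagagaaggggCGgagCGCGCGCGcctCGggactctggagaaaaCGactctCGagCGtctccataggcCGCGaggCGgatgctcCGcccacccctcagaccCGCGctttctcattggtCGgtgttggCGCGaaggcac
Chd4, plus strand, chr6:125095732-125095979: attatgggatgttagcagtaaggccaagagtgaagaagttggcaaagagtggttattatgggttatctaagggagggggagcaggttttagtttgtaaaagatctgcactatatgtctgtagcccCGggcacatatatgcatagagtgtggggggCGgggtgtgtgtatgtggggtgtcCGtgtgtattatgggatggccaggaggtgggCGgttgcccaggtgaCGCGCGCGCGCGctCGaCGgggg

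The Rbbp4 stretch holds 18 CpG in 161 bases with 68.3% G and C, and the Chd4 stretch holds 12 CpG in 248 bases with 54.0% G and C. Neither stretch holds any of the 4 motifs searched on both strands: the forkhead letters TGTTTAC, the ETS letters CCGGAAG, the RUNX letters TGTGGTT and the letters TGACCA that the related factor BCL11A binds. RefSeq promoter windows, from 250 bases before to 50 after a start, were found for 7 of the 10 genes, in 8 windows. Among these 8 windows, CCGGAAG stood in the Mta2 window alone and the other motifs in none; over all 32851 promoter windows the shares were 3.65% for TGTTTAC, 8.86% for CCGGAAG, 5.27% for TGTGGTT and 13.6% for TGACCA. No motif is contained in another, and a missing match says only that they are not in the window. The 8 windows held between 17 and 50 CpG, the fewest at the first Chd4 window and the most at Mta1. The median was 13 over 21263 windows of protein-coding genes, of which 42.7% held 17 or more. The second Chd4 window, at the start site 125096163, held 29 CpG with 68.3% G and C, and the Rbbp4 window 39 with 68.7%. Mta1, whose window was the densest in CpG, was one of the pair of NuRD genes with no region.

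Fewer of the NuRD genes were listed for Bcl11b in Treg cells than for Foxp3. KIKO Bcl11b was listed at 1 of the 10 genes, Mbd2, and 9.56% of all 21887 protein-coding genes have such a region. That listing rests on a single region of 198 bp, the modal width of the Treg Bcl11b set. Treg Bcl11b regions lay at 3, namely Mbd2, Mbd3 and Rbbp4, which is 30.0% of the genes (10.8 to 60.3), close to the 29.4% of all protein-coding genes. Tn Bcl11b was listed at 5, namely Hdac2, Mta2, Mbd2, Mbd3 and Rbbp4 (23.7 to 76.3%), against 20.4% of all genes. Foxp3 regions of Bcl11b-KO Treg cells lay at 7, namely Chd4, Hdac1, Hdac2, Mta2, Mta3, Mbd2 and Rbbp4, and those of WT Treg cells at the same 7. That is 70.0% (39.7 to 89.2) in each case, against 36.2% of all genes for Bcl11b-KO Foxp3 and 42.5% for WT Foxp3. At Hdac1 and Mta3 the WT listing rests on a single region whose width, 276 bp, is the modal width of the Bcl11b-KO set, and the lists do not show whether a separate WT call gave it. Both regions are also listed as Foxp3-specific in the comparison of Bcl11b and Foxp3 in WT Treg cells, which has no Bcl11b-KO set. A region of any set was placed at 8 of the 10 genes and at 51.0% of all genes. The share of all genes lay below the interval for Tn Bcl11b and for Bcl11b-KO Foxp3, and inside it for the other sets. The intervals over 10 genes are wide, the genes were chosen with earlier results known, and no test was run. Nothing particular to these genes is read from the shares.

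**Figure D1:**
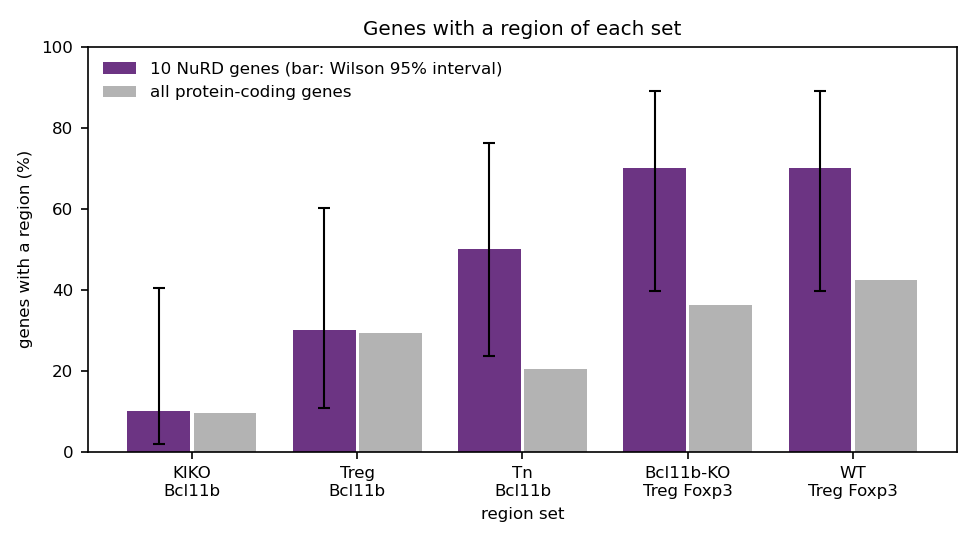
Share of genes with at least 1 region of each set, in percent (y axis), for the 10 NuRD genes with Wilson 95% intervals and for all protein-coding genes. Regions of KIKO, Treg and Tn Bcl11b stand at 1, 3 and 5 of the 10 NuRD genes, and regions of Bcl11b-KO and WT Foxp3 at 7 each.

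Regions were counted near gene ends and, separately, inside the genes, and a region can count in both ways. A gene end here is either boundary of any protein-coding gene. Of the 15, 8 had their centre within 1 kb of a gene end (53.3%, 30.1 to 75.2), against 37.9% of all regions, and 9 had it inside the gene (60.0%, 35.7 to 80.2), against 60.4% of all regions. Widths ran between 198 and 477 bp. The commonest width of a set is at most 276 bp, and the 5 regions above that lay at Chd4, Hdac2, Mta2, Mbd2 and Rbbp4 (33.3% of the 15, against 28.4% of all regions). All 5 were within 1 kb of a gene end, as were 53.5% of all regions of that width. The other 10 were no wider than 276 bp.

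**Figure D2:**
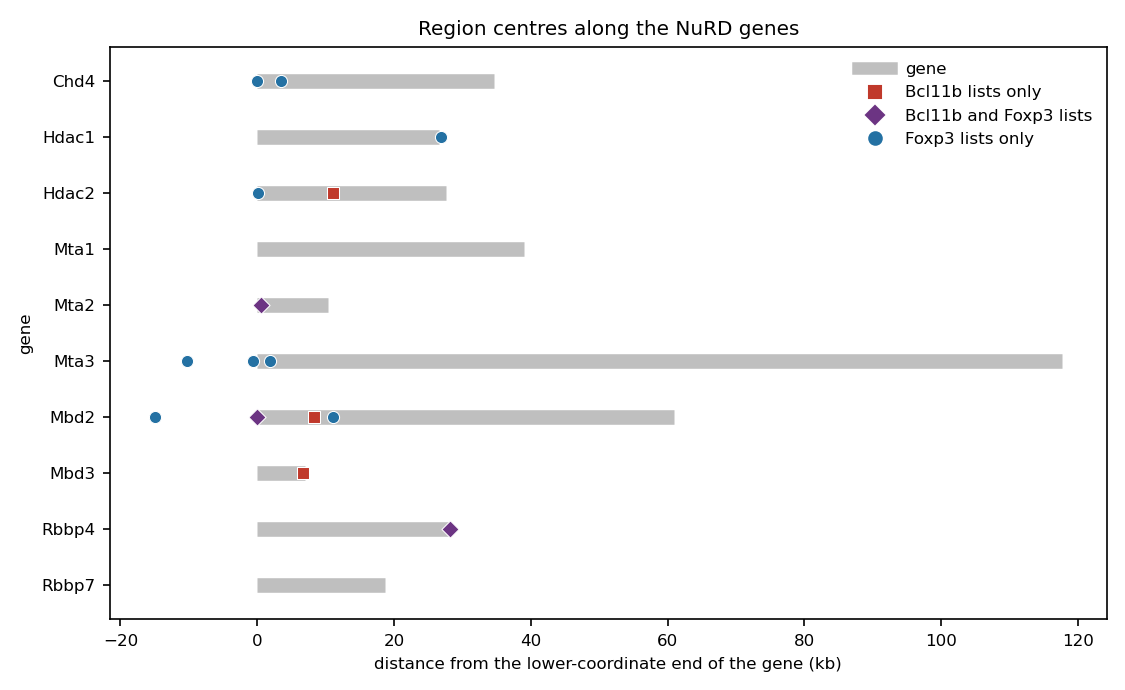
Centres of the 15 regions along the 10 NuRD genes, with distance from the lower-coordinate end of each gene in kb on the x axis, grey bars for genes and symbols for the factor listed. Mta1 and Rbbp7 carry no region, and the farthest region lies 14.94 kb outside Mbd2.

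Chd4, the ATP-dependent remodeller of the complex, had 2 regions, both listed for Foxp3 and in no Bcl11b list. The region at chr6:125095732-125096208 covered both RefSeq start sites found for it, at 125095981 and 125096163. Its centre lay 11 bp before the first, and it is the source of the Chd4 stretch shown above. The other, at chr6:125099334-125099553, lay inside the gene, 3.46 kb from its lower-coordinate end, where the gene starts. Both were Foxp3-specific against Bcl11b and common to Bcl11b-KO and WT Treg cells. Foxp3 was thus listed there with and without Bcl11b in the cells. The region inside the gene is 220 bp wide, the modal width of the WT Foxp3 set. For that region the lists do not show whether a separate Bcl11b-KO call gave it. The class pattern of both Chd4 regions is the most frequent among the 15 regions, and 5333 of all 22081 regions share it. A further region 1.11 kb beyond the far end of Chd4 carries it too but is nearer to Nop2, a gene for a nucleolar protein.

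Hdac1 and Hdac2 encode the class I deacetylases of the complex, which NuRD shares with other corepressors. Hdac1 had 1 region, at chr4:129542767-129543042, 258 bp beyond the higher-coordinate end of the gene. The next protein-coding gene, Lck, which encodes the kinase that starts signalling from the T cell receptor, lay 5.44 kb from its centre. Like the Chd4 regions it was Foxp3-specific against Bcl11b and common to Bcl11b-KO and WT Foxp3, with the width of 276 bp noted above. At the other side of Hdac1, 1.57 kb from the gene, a region common to Treg and Tn and to KIKO and WT Treg Bcl11b was nearer to Marcksl1.

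At Hdac2 the factors were listed at separate places, as they also were in part at Mbd2, and Bcl11b was listed there for Tn cells alone. Its region at chr10:36974175-36974529 had its centre 192 bp before the RefSeq start site at 36974544. It was listed for Foxp3 in Bcl11b-KO and WT Treg cells and not for Bcl11b. Its other region, at chr10:36985282-36985507, lay inside the gene, 10.85 kb past the same RefSeq start site. This region was listed once, as Tn-specific in the comparison of Treg and Tn Bcl11b. It is 226 bp wide, the modal width of the Tn set, and 492 regions of the series share its pattern. No other region lay within 100 kb of Hdac2.

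Mta1, Mta2 and Mta3 encode alternative scaffold subunits that bind the deacetylases, and their genes differed. Mta1, 39.0 kb long, had no region. The closest to it, at chr12:113139936-113140155, lay 2.84 kb away and was nearer to Crip2; it was Foxp3-specific against Bcl11b and common to Bcl11b-KO and WT Foxp3. In all, 8 regions lay within 100 kb of Mta1, each nearer to another gene.

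Mta2 had 1 region, at chr19:8942324-8942681, inside the gene and 582 bp past its start. It was Tn-specific in the comparison of Treg and Tn Bcl11b, Foxp3-specific in the comparison of Bcl11b and Foxp3 in Treg cells, and common to Bcl11b-KO and WT Foxp3. The lists thus place Bcl11b there in Tn cells and Foxp3 there in Treg cells, and 106 of all regions share this pattern. The region spans the whole 300-base promoter window of Gm10353, a long non-coding RNA gene on the opposite strand, and cannot be assigned to one of these genes over the other by position. The next protein-coding gene, Eml3, lay 0.92 kb from the centre of the region.

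Mta3, the longest of the 10 genes at 117.6 kb, had 3 regions, of which 2 were specific to Bcl11b-KO Foxp3. These KO-specific regions lay before the lower-coordinate end of the gene, 10.21 kb away at chr17:83695816-83696091 and 0.62 kb away at chr17:83705408-83705683. The third, at chr17:83707892-83708167, lay 1.87 kb inside the gene and was common to Bcl11b-KO and WT Foxp3 and Foxp3-specific against Bcl11b. Mta3 therefore had 3 Foxp3 regions in Bcl11b-KO Treg cells and 1 in WT Treg cells, and no Bcl11b region in any list. All 3 are 276 bp wide, the modal width of the Bcl11b-KO set, so the doubt about a separate WT call bears on the third. The third is also listed in the comparison of Bcl11b and Foxp3 in WT Treg cells, which has no Bcl11b-KO set.

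Mbd2 encodes the subunit that reads methylated CpG, and its gene carried the most regions, 4, a number that 6.45% of all protein-coding genes reach. The region over its lower-coordinate end, at chr18:70567993-70568348, was listed in 4 of the 5 sets. It was common to Treg and Tn Bcl11b, common to Bcl11b and Foxp3, and common to Bcl11b-KO and WT Foxp3, but was WT-specific in the comparison of KIKO and WT Treg Bcl11b. The region at chr18:70576372-70576569, 8.24 kb inside the gene, showed another order. It was Treg-specific against Tn, common to KIKO and WT Treg Bcl11b, and Bcl11b-specific against Foxp3. It is 198 bp wide, the modal width of the Treg Bcl11b set. The lists do not show whether a separate KIKO call gave it.

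The remaining Mbd2 regions were listed for Foxp3 and not for Bcl11b. One, at chr18:70579116-70579391 and 11.03 kb inside the gene, was common to Bcl11b-KO and WT Foxp3. It is also 276 bp wide, with the same doubt about a separate WT call as at Hdac1 and Mta3. Unlike the Hdac1 region and the third Mta3 region, it is absent from the lists that compare Bcl11b with Foxp3. So are 12.7% of the WT Foxp3 regions of the Bcl11b-KO comparison. The other, at chr18:70553173-70553392, lay 14.94 kb outside the gene and was WT-specific in the comparison of Bcl11b-KO and WT Foxp3. Mbd2 thus had 2 Foxp3 regions in Bcl11b-KO cells and 3 in WT cells, and 1 Bcl11b region in KIKO cells, 2 in WT Treg cells and 1 in Tn cells. No other gene had the same set of 4 patterns. A match had to be exact in all 4, and 6.45% of all protein-coding genes have 4 or more regions, so this is not read as particular to Mbd2. With all annotated genes in place of protein-coding ones, the outermost region and the region over the gene end were nearest to Gm31671 instead.

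Mbd3 encodes the alternative Mbd subunit, which in mammals binds methylated DNA weakly if at all. Its gene is the shortest of the 10, 7.0 kb, and its single region, at chr10:80399077-80399307, had its centre 339 bp past the RefSeq start site at 80399531 on the minus strand. It was common to Treg and Tn Bcl11b, WT-specific in the comparison of KIKO and WT Treg Bcl11b, and Bcl11b-specific against Foxp3. Mbd3 is the only one of the 8 genes with a region at which no Foxp3 region was listed. This pattern is shared by 525 regions of the series.

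Rbbp4 and Rbbp7 encode closely related histone-binding subunits. Rbbp4 had 1 region, at chr4:129335104-129335567, over its start, the source of the Rbbp4 stretch shown above. Its centre lay 35 bp past the RefSeq start site at 129335370 and 197 bp from Zbtb8os, so that the region covers the space between these genes. It was common to Treg and Tn Bcl11b, WT-specific against KIKO, common to Bcl11b and Foxp3, and common to Bcl11b-KO and WT Foxp3. This is the class pattern of the region over the Mbd2 end. The pattern was found at 644 regions of the series, and 205 other genes had it as their sole region. Rbbp7, on chromosome X, had no region, and none of any gene lay within 100 kb of it. Rbbp4 and Hdac1 lie 180.7 kb apart on chromosome 4.

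**Figure D3:**
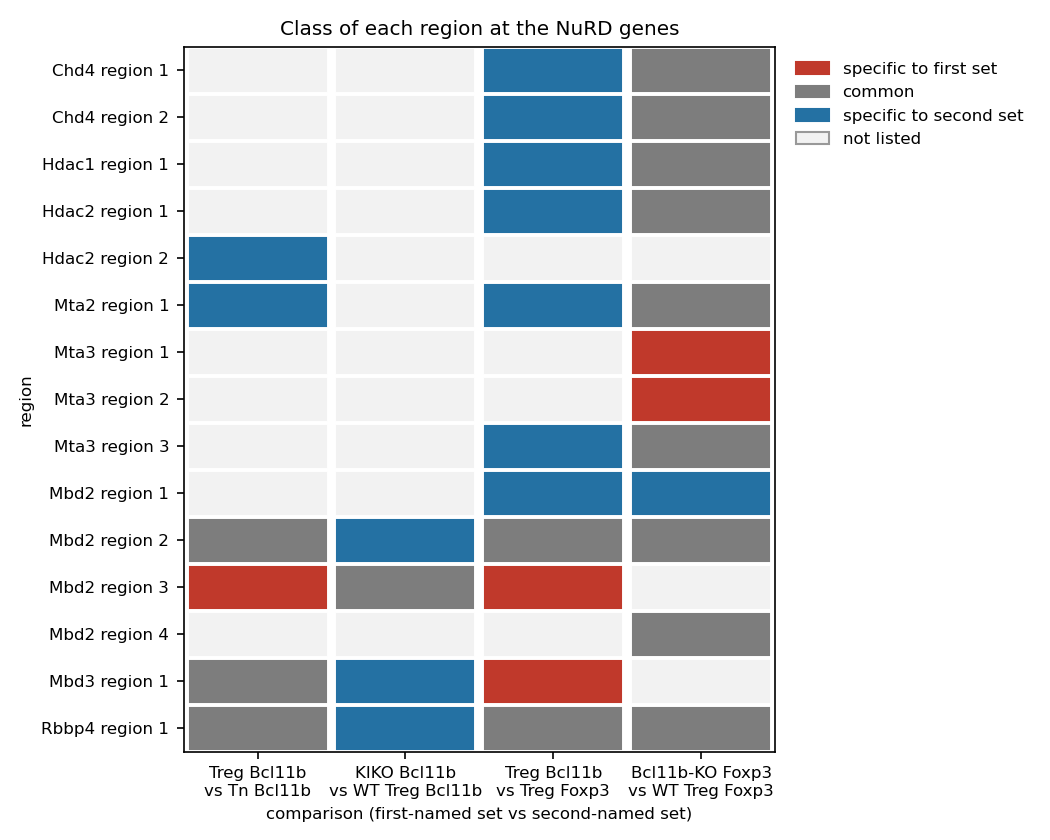
Class of each of the 15 regions (rows, numbered by coordinate within a gene) in the 4 comparisons (columns), coloured by whether the region was specific to the first-named set, common, specific to the second-named set or not listed. The Rbbp4 region and Mbd2 region 2 share a row pattern, and both KO-specific regions stand at Mta3.

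The question of the Treg and Tn comparison is where Bcl11b sits in Treg but not in Tn cells, and its lists held 6 of the 15 regions. At Mbd2 the region inside the gene was Treg-specific, which makes 1 of 6 (28.0% of all 7243 regions compared). Regions at Mbd2, Mbd3 and Rbbp4, each within 1 kb of a gene end, were common, 3 of 6 (62.0% of all). Tn-specific were 2 of 6, at Hdac2 and Mta2 (10% of all, 725 regions). The interval of the Tn-specific share, 9.68 to 70.0%, includes the share over all regions.

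The comparison of KIKO and WT Treg cells asks which Bcl11b sites remain without Foxp3. Of the 4 NuRD gene regions in it, 0 were KIKO-specific (1.17% of all 5713), 1 was common (37.2% of all) and 3 were WT-specific (61.6% of all). The common region was the Treg-specific one inside Mbd2. It has the modal width of the Treg Bcl11b set, and a separate KIKO call for it is not shown. The 3 WT-specific ones, at Mbd2, Mbd3 and Rbbp4, were those common to Treg and Tn cells. Among all regions listed in both the Tn and the KIKO comparison, 13.3% of the Treg-specific ones (269 of 2025) and 47.2% of those common with Tn (1571 of 3326) were common to KIKO and WT Treg. With 1 and 3 regions, the NuRD genes give no measure of such a relation.

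The comparison of Bcl11b and Foxp3 in WT Treg cells asks where the factors coincide, and it listed 11 of the 15 regions. Bcl11b-specific were 2, at Mbd2 and Mbd3 (18.2%, 5.14 to 47.7, against 14.9% of all 16747 regions). Common were 2, at Mbd2 and Rbbp4 (18.2%, against 28.3% of all). Foxp3-specific were 7, at Chd4, Hdac1, Hdac2, Mta2, Mta3 and Mbd2 (63.6%, 35.4 to 84.8, against 56.8% of all). Each share over all regions lies inside the interval at the NuRD genes.

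The comparison of Foxp3 in Bcl11b-KO and WT Treg cells asks how Foxp3 sites differ without Bcl11b, and it listed 12 of the 15 regions. KO-specific were 2, both at Mta3 (16.7%, 4.7 to 44.8, against 13.1% of all 17673 regions). Common were 9, at 7 genes (75.0%, 46.8 to 91.1, against 59.7% of all). WT-specific was 1, the region outside Mbd2 (8.33%, 1.49 to 35.4, against 27.2% of all). Both regions that WT Treg Bcl11b and Foxp3 shared, at Mbd2 and Rbbp4, were among the common ones. The shares over all regions again lie inside the intervals.

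**Figure D4:**
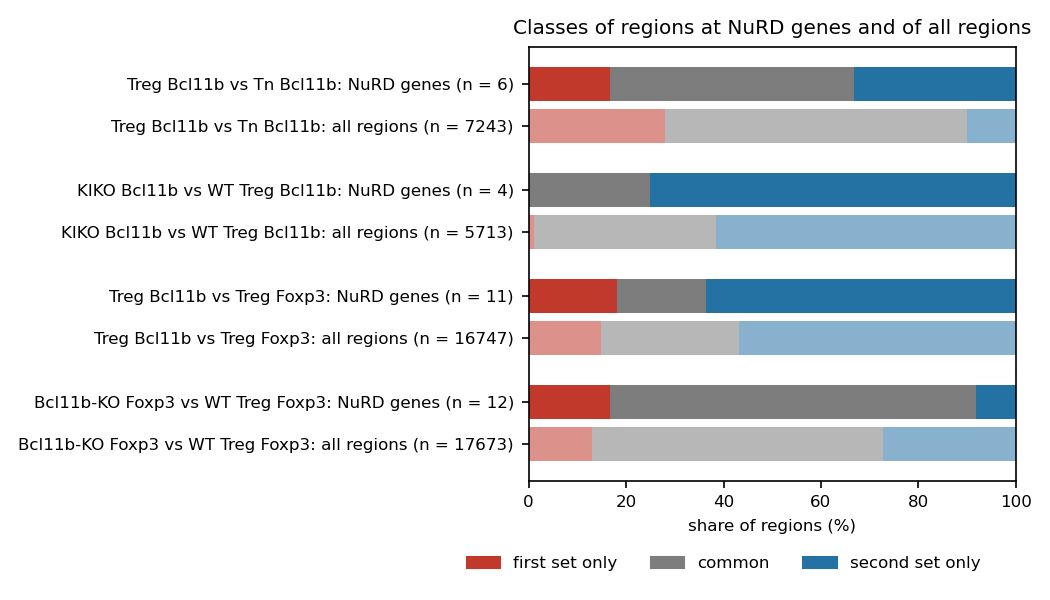
Share of regions in each class, in percent (x axis), for the NuRD genes (solid bars) and for all regions (pale bars) in the 4 comparisons, with n beside each bar. With 6, 4, 11 and 12 regions the NuRD gene bars rest on few regions, and the share of common regions is 75.0% of 12 in the comparison of Bcl11b-KO and WT Foxp3, against 59.7% of all.

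Of 5 further subunit genes of the complex, Chd3, Gatad2a and Cdk2ap1 had regions, and Chd5 and Gatad2b had none. Gatad2a encodes a scaffold that joins the Mbd subunit to the remodeller, and it carried 5 of the list's 8 regions. Of these, 3 were listed for Bcl11b-KO Foxp3 and 4 for WT Foxp3. The WT listing at chr8:69974248-69974523 is open to the doubt raised above, as it is 276 bp wide and absent from the comparison of Bcl11b and Foxp3. Treg Bcl11b was listed at 2 of the 5 regions, both shared with Foxp3. That at chr8:69919098-69919487 was common with Tn and WT-specific against KIKO, as were the regions over the ends of Mbd2 and Rbbp4, but it was not listed for Foxp3 in the Bcl11b-KO comparison. That at chr8:69920250-69920618 was listed for Bcl11b in the comparison with Foxp3 alone. Chd3, an alternative remodeller gene, had 1 KO-specific and 1 common Foxp3 region and no Bcl11b region, and Cdk2ap1 had 1 WT-specific Foxp3 region. Over the 5 genes, 2 of 7 regions of the Bcl11b-KO comparison were KO-specific (13.1% of all regions), 3 common (59.7% of all) and 2 WT-specific (27.2% of all), and Gatad2a held 4 of the 7.

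**Figure D5:**
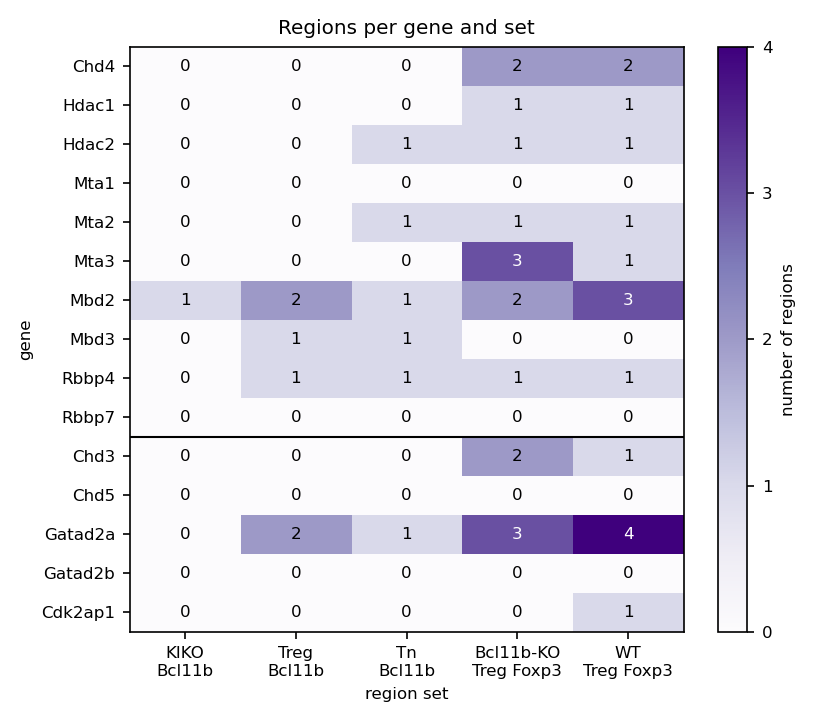
Number of regions of each set (columns) at the 10 NuRD genes and, below the line, at 5 further subunit genes. Mbd2 and Gatad2a hold the most Treg Bcl11b regions, 2 each, and Mta3 holds 3 Bcl11b-KO Foxp3 regions and 1 WT Foxp3 region. At Gatad2a, 1 of the Treg Bcl11b regions was listed for Bcl11b in the comparison with Foxp3 alone.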

How the data were processed

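The 12 deposited lists give 3 columns per region, its chromosome, start and end, without header, score or replicate value. Per the submitters' processing notes the build was mm10, and the software named, with no roles, was HISAT2 2.1.0 and SAMtools 1.3, HOMER 4.10.1 and deepTools, and for reads cutadapt 1.12, Trim Galore 0.4.2 and FastQC. How peaks were thresholded, replicates pooled and lists called specific or common is not given in the sources used here. Treg Bcl11b replicate 3 is the one immunoprecipitated sample whose description quotes no list.

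Rows that repeated a region (127) were dropped, and 25 regions in 2 classes of a comparison were left out of that comparison. Regions were matched by identical coordinates, printed 1-based. Genes, without strand, and promoter windows, with strand, came from RefSeq GRCm38.p6. A region at equal distance from several genes counts at each. Gene assignment equalled a plain search at 600 of 600 simulated regions. Members, lists and alternatives were chosen with earlier results of these data known; every member was named, with every region, and list genes were named at 3 or more regions; the other subunit genes, Sall3 and Bcl11a were named after their values were seen. Work was done in Python 3.11.15 with pandas 2.3.3, scipy 1.17.1 and matplotlib 3.10.9.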

Additional observations from a re-analysis of the deposited data

How the results depend on the processing

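Of 106 values under 8 alternatives, 88 stayed within 1.5 times and 18 moved. None moved with a limit of 20 kb, the nearest edge of a region, merging regions within 500 bp, counting conflicting regions in both classes, or 2.5 kb in place of 1 kb from a gene end. The 20 kb limit could move no value, since the farthest region lies 14.94 kb from its gene. Double counting could move none either, since none of the 15 regions stood in conflicting classes. None of the 15 lay within 500 bp of another of them. The 88 therefore includes values fixed in advance, 15 for each of the first 2 named here. Taking each gene with 10 kb on each side, the regions common to Treg and Tn became 5, those common to KIKO and WT Treg 3, those common to Bcl11b and Foxp3 4, those specific to Bcl11b-KO Foxp3 1, and those within 1 kb of a gene end 13; the construction adds 5 regions nearer to other genes and drops those over 10 kb away. With the nearest of all annotated genes, 1 region was common to Bcl11b and Foxp3 and 0 were WT-specific against Bcl11b-KO, since 2 Mbd2 regions went to Gm31671. With only regions wider than 276 bp, 5 regions at 5 genes were left, all 5 within 1 kb of a gene end. Of these 0 were Treg-specific and 1 Tn-specific, 0 common to KIKO and WT Treg, 0 Bcl11b-specific and 3 Foxp3-specific, and 0 KO-specific, 5 common and 0 WT-specific for Foxp3.

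No paired analysis was possible because the lists hold no value per replicate, and leaving out a replicate could not be run for the same reason. The depth of each library is unknown, so an unlisted region is not shown to be unbound.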

Other observations

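Genes of the other deacetylase corepressors were described by the same rule, with no test. Over all protein-coding genes, 51.0% had a region, 29.4% one of Treg Bcl11b and 42.5% one of WT Foxp3. Of 12 genes of the Sin3 complex, which also holds Hdac1, Hdac2, Rbbp4 and Rbbp7, 12 had a region, 7 of them of Treg Bcl11b and 11 of WT Foxp3. Arid4a, which encodes a chromatin-binding subunit, carried 5 regions, 2 of Treg Bcl11b and 5 of WT Foxp3, and Sin3a, the scaffold, carried 3. All 7 genes of the CoREST list had a region, 5 of them of Treg Bcl11b and 5 of WT Foxp3, with 3 regions each at Rcor1, the scaffold gene, and Phf21a. All 6 genes of the NCoR and SMRT list had one, 3 of them of Treg Bcl11b and 5 of WT Foxp3, with 3 regions each at Ncor1 and Tbl1xr1. All 8 other histone deacetylase genes had one, 5 of them of Treg Bcl11b and 8 of WT Foxp3, with 5 regions at Hdac9, 4 each at Hdac4 and Hdac7, and 3 at Hdac5.

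In the comparison of Bcl11b-KO and WT Foxp3, 13.1% of all regions were KO-specific, 59.7% common and 27.2% WT-specific. The Sin3 list had 0 KO-specific, 14 common and 5 WT-specific regions. The CoREST list had 1, 6 and 3 in the same order, the NCoR and SMRT list 0, 9 and 0, and the other histone deacetylases 2, 11 and 6. Of 8 genes for transcription factors of the Bcl11, Sall and Zfpm families, several of which are known to bind NuRD through an N-terminal motif like that of Bcl11b, 4 had a region. Bcl11b itself had 4 and Zfpm1 3. The Zfpm1 regions lie side by side between chr8:122283846 and chr8:122284699, so in the counts that follow they are not independent. In the comparison of Bcl11b and Foxp3 in Treg cells, this list had 1 Bcl11b-specific region, at Sall3, 7 common ones, at Bcl11b and Zfpm1, and 1 Foxp3-specific region, at Bcl11a, against 14.9%, 28.3% and 56.8% of all regions. Among the common ones, those at chr12:108001935-108002154, chr12:108004049-108004299 and chr8:122283846-122284065 were not listed in the Tn or the KIKO comparison. Their Bcl11b listing rests on the comparison with Foxp3 alone, and the other common ones were listed in at least 1 of those comparisons.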
